A study of Mus musculus with 12 samples.

Results

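RBX1 encodes the RING subunit of the cullin-RING ubiquitin ligases, in which it holds the ubiquitin-conjugating enzyme next to a cullin and also takes part in joining NEDD8 to the cullin. RbFox1 is an RNA binding protein that recognises (U)GCAUG in transcripts, mostly in introns, and changes the splicing of alternative exons. In eCLIP, ultraviolet light crosslinks a protein to the RNA it touches, an antibody pulls the protein down, and the attached RNA fragments are sequenced, so that a peak marks a place where fragments pile up.

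The RbFox1 peaks of RBX1 were the members described here. They were taken from the list of human peaks as those overlapping chr22:40951347-40973309 of hg38 on the + strand, the stretch of 21963 nt taken as the RBX1 gene body. This rule found 25 of the 24831 human peaks, and all 25 lay wholly inside the gene body. A run of 23 of them, from 40966790 to 40967733, was chosen by its log2 fold enrichment in the same list, so its enrichment is given as a description and without a test. The other 2 peaks of the gene lay upstream of the run.

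The cells were T-REx-293, a human embryonic kidney line, in the clone 77-5, which carries the mouse Ntrk2-BAC minigene and makes Rbfox1 from a tetracycline-inducible system when doxycycline is given. The list compared 2 immunoprecipitated libraries of 77-5 cells given doxycycline for 48 h (+Dox) with 2 of untreated 77-5 cells (No Dox), and the labels give the dose as 0.5 mg/ml, where the figure legends have the same figure in μg. A further 2 libraries of the deletion line 32-1 and 6 input libraries are not part of this comparison. Whether input libraries helped to decide which peaks were listed is not known here. The labels name the mouse as the organism, although the cells and the peaks of RBX1 are human.

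The authors gave each peak a log2 fold enrichment, the log2 ratio of the normalised reads in +Dox over No Dox, and a −log10 p from a test on the reads. Both are single values merged over replicates. The list has 0 columns for single libraries and no read counts, so the depth behind each peak is unknown, no error between replicates can be set beside a difference, and no pair of values can be said to differ beyond the replicate spread. The comparison is between 2 immunoprecipitations and not with input, so the amount of RBX1 RNA and the RbFox1 bound per RNA cannot be told apart in these values.

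RBX1 held some of the most enriched RbFox1 peaks of the human list. Its 25 peaks had a median log2 fold enrichment of 5.36, which is 41.0-fold, and ran from 3.70 to 6.70, against a median of 3.68 over all 24831 human peaks. All 25 lay at or above that median, and the lowest of them was next to it. Where the log2 ratio had to reach 4 and the −log10 p 5, 23 of the 25 RBX1 peaks were left, beside 29.0% of all human peaks. The rule for the run used the same enrichment, so nothing is read from this share.

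The peaks were confined to a small stretch of the gene. From the first to the last they spanned 3599 nt, and no peak of the list lay in the first 12788 nt of the gene body or in its last 5576 nt. The run began 15443 nt from the gene start, at 70.3% of the gene length, and with its 944 nt took up 4.30% of the gene. The 2 peaks outside it formed a pair that ended 2583 nt before the run. No peak of the − strand fell in the gene body.

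**Figure D1:**
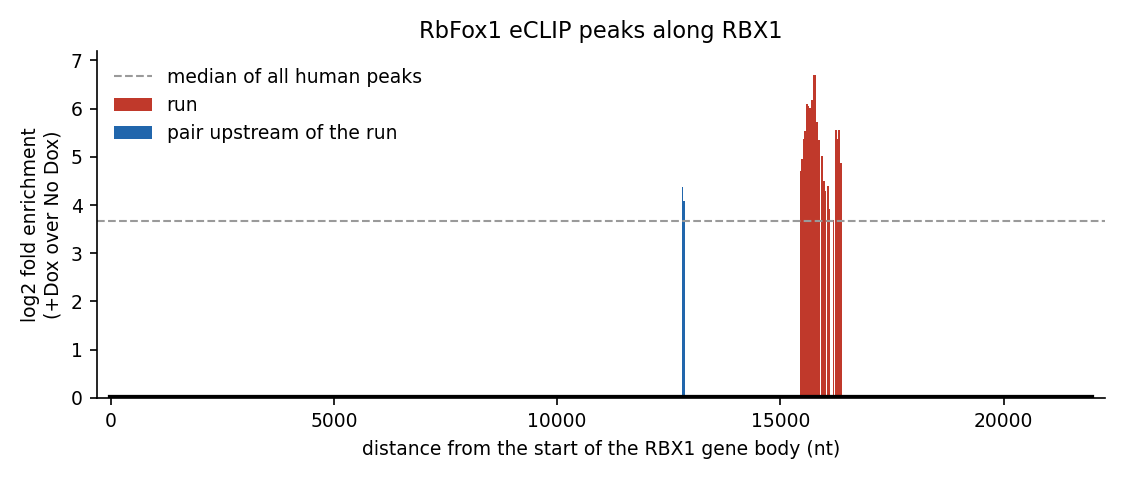
RbFox1 peaks along the RBX1 gene body, with distance from the gene start in nt on the x axis and log2 fold enrichment on the y axis, each bar as wide as its peak. The 23 peaks of the run (red) stand 15443 nt from the gene start, the pair (blue) stands upstream of them, and the dashed line is the median of all human peaks at 3.68.

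The surroundings of RBX1 on chromosome 22 were empty of listed peaks. On the + strand the nearest peak upstream of the pair ended at 40334320, 629814 nt away, and the nearest downstream of the run began at 41159365, 191631 nt away. On the − strand the distances were 120401 nt upstream and 210462 nt downstream. The list leaves out peaks under a log2 fold enrichment of 3 or a −log10 p of 3, so weaker signal in these stretches is neither shown nor absent.

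The highest peak of RBX1 lay from 40967070 to 40967140 and was 71 nt wide, the widest of the gene. Its log2 fold enrichment was 6.70, or 104-fold, with a −log10 p of 141. Only 3 of all human peaks had a higher log2 fold enrichment, the highest of them 6.79. On chromosome 22, which held 963 human peaks with a median of 3.60, this was the highest value. The 4 most enriched peaks of the chromosome were all in RBX1. They lay within 1 stretch of 220 nt and are not 4 separate sites. The most enriched peak of chromosome 22 outside RBX1 lay from 44777269 to 44777314 and had 6.02.

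The highest peak closed a block of 5 neighbouring peaks whose log2 values all reached 6. The block ran from 40966921 to 40967140 and covered 219 of its 220 nt. From its 5′ end the log2 fold enrichments were 6.10, 6.05, 6.02, 6.18 and 6.70. The whole human list held 56 peaks at this level. Peaks on 1 strand were counted as a run where no more than 500 nt lay between neighbours, and 1 human run had more such peaks than RBX1, with 7.

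The enrichment along the run had 2 crests with a trough between them. At the 5′ border, the 11 nt peak at 40966790 stood at 4.71 on the log2 scale, and the next, at 40966801, at 4.96. Over the first 10 peaks, 6 of the 9 steps from 1 peak to the next were upward, and the values reached 6.70 at the tenth. The peaks at 40966850, 40966880 and 40966910 lay between these levels, with 5.38, 5.53 and 5.42.

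Downstream of the highest peak the values were lower over 9 peaks, with 7 of 9 steps downward. The largest drop between neighbours, of 0.98, came directly after the highest peak, where the peak at 40967143 stood at 5.72 on the log2 scale. The peak at 40967179 stood at 5.36. The next group, at 40967248, 40967267 and 40967302, had 4.81, 5.02 and 4.50.

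The trough held the 4 least enriched peaks of the run. The peaks at 40967350, 40967383 and 40967435 had log2 fold enrichments of 4.29, 4.39 and 3.92. After the widest gap of the run, 66 nt, the peak from 40967532 to 40967556 had 3.70, the lowest of the 25. This is 13.0-fold against the 104-fold of the highest peak, and its −log10 p of 14.99 was also the lowest of the gene.

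The second crest followed at once. Only 7 nt further on, the peak from 40967564 to 40967615 had a log2 fold enrichment of 5.56, a rise of 1.86 that was the largest step in either direction within the run. The crest had 4 peaks over 170 nt, with 5.56, 5.38, 5.56 and 4.87 in order. Its highest peak was 1.14 below that of the first crest, and 423 nt separated the highest peak of the run from its start. With no value for each library, neither the height of the crests nor the depth of the trough can be set against a replicate error.

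**Figure D2:**
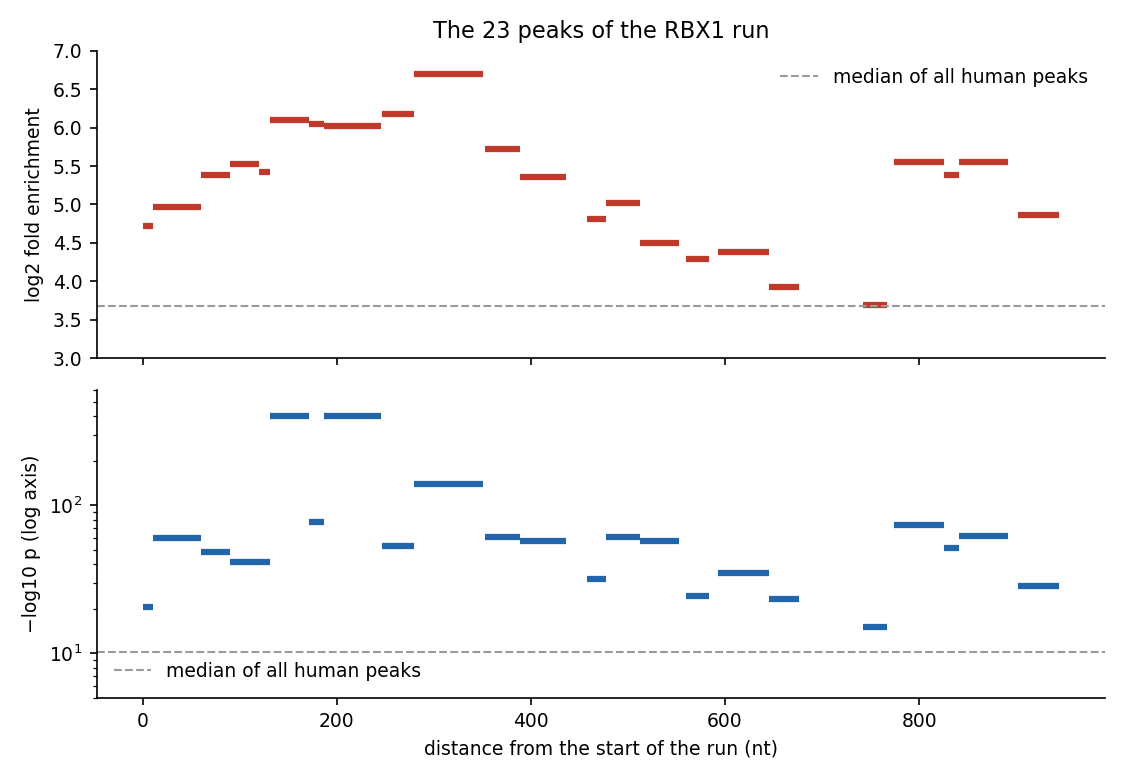
The 23 peaks of the RBX1 run, each drawn as a line over its width, by distance from the start of the run in nt. The upper panel gives log2 fold enrichment, with a first crest that reaches 6.70, a trough at 3.70 and a second crest at 5.56, and the lower panel gives −log10 p on a log axis, where 2 peaks stand at 400 and the dashed line is the median of all human peaks.

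The run was made of many narrow peaks set edge to edge. Of its 22 pairs of neighbours, 14 abutted with no base between them, and the other 8 were 1 to 66 nt apart. Together the 23 peaks covered 820 of the 944 nt, or 86.9%, and joining those that abut left 9 regions, the longest of 246 nt. The peaks were 11 to 71 nt wide with a median of 35 nt, where the median over all human peaks was 82 nt, and 22 of the 23 were narrower than the lower quartile of the human list, 60 nt. Narrow peaks were not particular to RBX1. The 11 human runs of at least 20 peaks, RBX1 included, had median widths of 21 to 65 nt.

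Neighbouring peaks of such widths are not independent measurements. The shortest reads kept after trimming were 18 nt long, and 4 of the 23 peaks were narrower than that, at 11, 11, 16 and 15 nt, too narrow to hold a whole read. Of all human peaks, 1.04% were narrower than 18 nt. Neighbours that abutted differed by a median of 0.22 on the log2 scale, over 14 steps, and neighbours that lay apart by a median of 0.38, over 8 steps.

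The −log10 p of the run had a median of 52.8, which 5.28% of all human peaks exceeded, against a median of 10.2 over the whole list. Within the run it ran from 14.99 to 400, and it did not follow the enrichment peak by peak in the first crest. The peak from 40966921 to 40966960 had a −log10 p of 400 at a log2 fold enrichment of 6.10. The 16 nt peak that abuts it, at 40966961, had 77.3 at nearly the same enrichment, 6.05. The next, from 40966977 to 40967035, again had 400, and the 33 nt peak after it had 52.8 with an enrichment above both, 6.18.

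The value of 400 is the highest in the list, and 510 human peaks, 2.05% of the list, shared it. Just under it the scale was nearly empty, with 4 human peaks over 90 and below 400 and all others at 88.1 or less. One of the 4 was the highest peak of RBX1, whose 141 came next after the highest of them, 150. The 2 peaks of RBX1 at 400 therefore cannot be ranked against each other by p.

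Across the 23 peaks of the run, log2 fold enrichment and −log10 p had a Spearman's rho of 0.80 and a Pearson's r of 0.52. Without the 2 peaks at 400 the values were 0.77 and 0.79 over 21 peaks. Width had a rho of 0.27 with the enrichment and of 0.56 with −log10 p, over the 23. The peaks share libraries and, where they abut, may share reads, so these are descriptions of 1 run. Over all human peaks, which come from many transcripts, the rho of enrichment with −log10 p was 0.30.

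**Figure D3:**
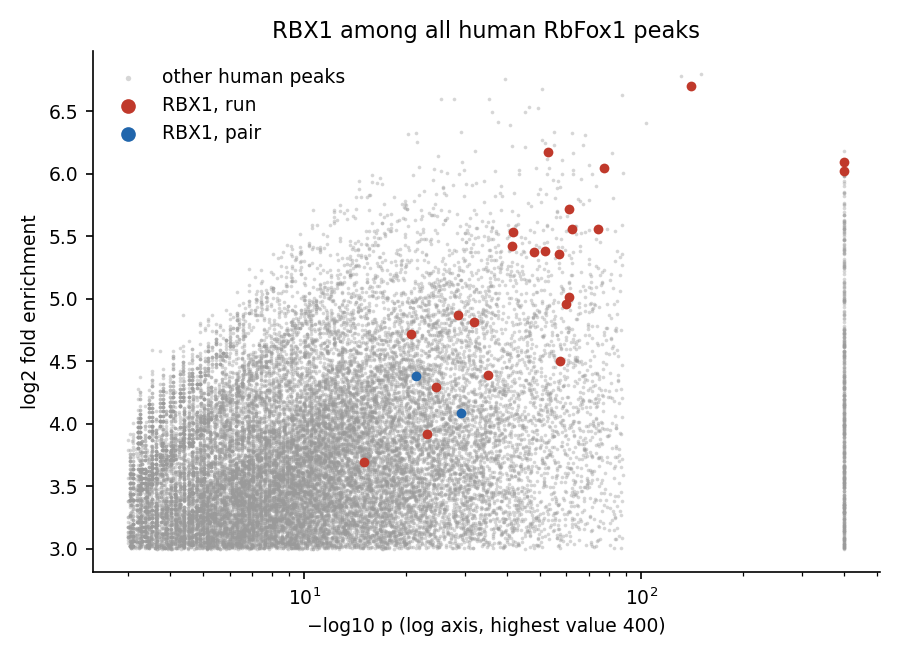
All 24831 human peaks by −log10 p on a log axis (x) and log2 fold enrichment (y), with the run of RBX1 in red, its upstream pair in blue and the other peaks in grey. The highest peak of RBX1 is 1 of the few points between the main cloud and the column at 400, and the pair lies within the cloud.

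The rest of the gene gave 1 further site. The pair upstream of the run covered 72 nt without a gap. The peak from 40964135 to 40964161 had a log2 fold enrichment of 4.38 and a −log10 p of 21.5, and the abutting peak from 40964162 to 40964206 had 4.08 and 29.3. Of the run, 20 of 23 peaks were above both of these, 1 lay between them and 2 were below both. The median of the run, 5.38 or 41.6-fold, was 1.15 above that of the pair on the log2 scale and 1.70 above that of all human peaks, and 1.70% of all human peaks exceeded it. The run was picked for this enrichment and the pair is 2 abutting peaks, so no test was made of the difference.

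Among human runs the run of RBX1 combined many peaks with a high level. The list held 2138 runs of at least 4 peaks, with a median of 5 peaks, 651 nt and a run median of 3.80. RBX1 had 23 peaks, a number that 2 runs exceeded and 3 others shared. Its highest peak ranked 4 of the 2138 runs, its peaks per 100 nt, 2.44, ranked 10, and its median log2 fold enrichment ranked 14. By the mean weighted by nucleotides, chosen after seeing the data, its rank was 21. The run was picked as a short and highly enriched one, so these ranks are descriptions and nothing is read from them. The number of peaks and the peaks per 100 nt count abutting peaks singly, and joining them left 9 regions in the RBX1 run. The runs were not ranked after joining. Of the 13 runs ahead by median, 11 had fewer than 15 peaks. The first, on the − strand of chromosome 8 from 134509822 to 134510683, had 10 peaks with a median of 6.22.

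The 2 larger runs ahead of RBX1 by median were close to it in level. One, on the − strand of chromosome 17 from 17228938 to 17230133, had 19 peaks with a median of 5.53. The other, on the + strand of chromosome 1 from 15428768 to 15429939, had 21 peaks with a median of 5.47. Their highest peaks, at 6.18 and 5.98, were below the 6.70 of RBX1, and their lowest, at 4.68 and 4.25, were above its 3.70.

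Runs with the same number of peaks were longer and less enriched. The one on the + strand of chromosome 10 from 74112146 to 74113945 had a median log2 fold enrichment of 4.71 over 1800 nt. The one on the + strand of chromosome 20 from 25285247 to 25286907 had 4.11 over 1661 nt, and the one on the + strand of chromosome 12 from 110346320 to 110347843 had 3.84 over 1524 nt. The highest peaks of these 3 runs were between 4.91 and 5.79. The 944 nt of RBX1 were the shortest span of the 11 runs of at least 20 peaks, although the next, on the − strand of chromosome 10 from 71816421 to 71817373, was only slightly longer at 953 nt and had a median of 3.92. The run of RBX1 was picked as a short and highly enriched one, so nothing is read from its span or its higher level. These runs were set beside RBX1 by their counts in the same list, without a test.

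The 6 runs nearest to RBX1 in median, 3 on each side of its rank, had a like level from fewer but wider peaks. Their medians lay between 5.35 and 5.46, and they had 4 to 6 peaks over 343 to 997 nt. Their median peak widths were 58 to 177.5 nt, against 35 nt in the RBX1 run. The peaks covered 343 to 765 nt, against 820 nt in RBX1, so the runs differed less in covered sequence than in number of peaks. Weighted by nucleotides, their mean log2 fold enrichments were 5.36 to 5.59, against 5.33 for RBX1. The nearest above, on the + strand of chromosome 1 from 27344873 to 27345215, had 4 peaks with a median of 5.44, and the nearest below, on the + strand of chromosome 7 from 44763829 to 44764385, had 5 peaks with 5.37. Of the 6, none had a peak above 6.60. The other 4 were on chromosome 13 from 113446463 and on chromosome 2 from 219553657, both on the − strand, and on chromosome 19 from 46389607 and chromosome 10 from 24541400, both on the + strand.

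**Figure D4:**
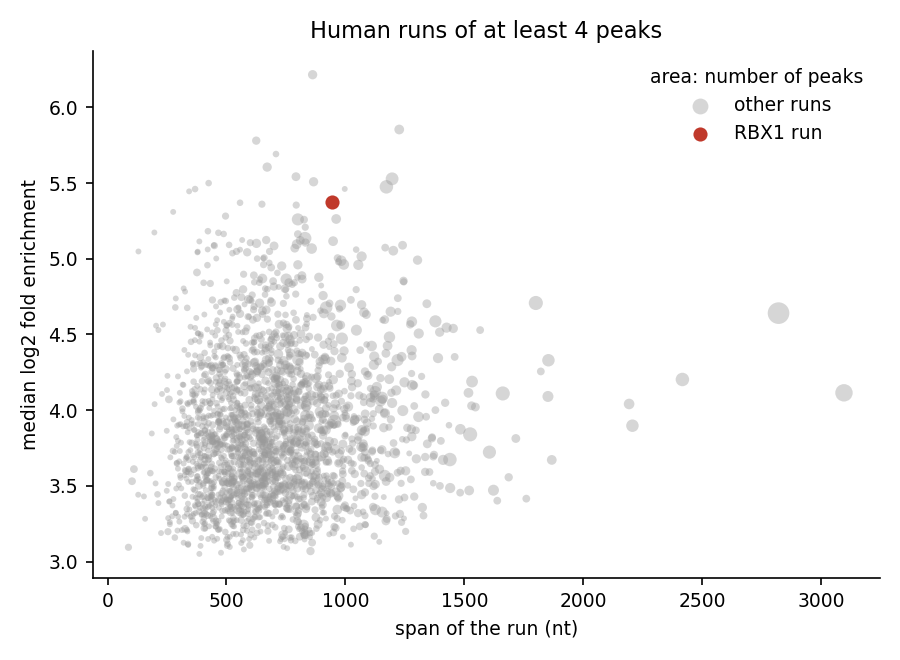
The 2138 human runs of at least 4 peaks, by span in nt (x) and median log2 fold enrichment (y), with the area of each point proportional to the number of peaks. The run of RBX1 (red) stands at 944 nt and 5.38, to the left of the other runs of at least 20 peaks, and 13 runs lie above it.

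The minigene in the same cells gave lower values than RBX1 from the same libraries, and RBX1 was picked for its enrichment. The 7 minigene peaks in +Dox over No Dox had log2 fold enrichments from 3.14 to 4.13. Their median was 3.78, beside 3.68 over all human peaks. Of the 25 RBX1 peaks, 22 were above the highest minigene peak, and the highest RBX1 peak was 2.57 above it on the log2 scale. Both the minigene peaks, at 15 to 51 nt, and those of RBX1 were narrower than the median human peak. The minigene transcript is driven by its own synthetic promoter, and RNA levels of neither transcript were measured in these lists.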

How the data were processed

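eCLIP was performed on immunoprecipitated libraries of T-REx-293 cells. After trimming identifiers and adapters (UMI-tools, cutadapt) and discarding repeat reads, the authors aligned reads to hg38 plus the minigene (STAR), dropped PCR duplicates and called peaks (CLIPper). Each deposited peak holds a log2 fold enrichment of normalised reads and a −log10 p-value from the authors' chi-square test with Yates' correction or Fisher's. The peak list carries the label IDR, which the sources used here do not explain, and they do not say how replicates were merged.

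Reading and counting were done in Python 3.11.15 (pandas 2.3.3), correlations in scipy 1.17.1 and plots in matplotlib 3.10.9. Positions count from 1. A peak belonged to RBX1 with an overlap of at least 1 nt. Runs were same-strand peaks at most 500 nt apart, and their grouping was tested on simulated data. The depth is unknown. No test between conditions was made, and the members and lists were chosen with earlier results of these data known.

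Runs named were RBX1, the 3 nearest in median on each side, and, chosen after their values were seen, those with as many peaks, 3 of those ahead of it and the next shortest run of at least 20 peaks. Exons, introns, motifs and other cullin-RING ligase genes were not analysed here, as no human sequence or annotation was used, and the minigene list of WT against deletion was not used.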

Additional observations from a re-analysis of the deposited data

How the results depend on the processing

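No paired analysis was possible because replicates had been merged into a single value for each peak, and for the same reason no library could be left out in turn. Joining abutting peaks left 10 regions of the 25 RBX1 peaks and 9 of the 23 in the run. With the log2 enrichment required to reach 4 and the −log10 p 5, 23 and 21 were left. Counting only peaks wholly inside the gene body left the 25, and run distances of 100, 500 and 1000 nt left the 23. The median log2 fold enrichment of the run, 5.38, was 5.33 as a mean weighted by nucleotides, 5.38 under those stricter limits and 5.36 without peaks narrower than 18 nt, an alternative chosen after seeing the data, which left 19. The rank of the run by median, 14 of 2138, was 16 of 1582 at a distance of 100 nt, 11 of 2272 at 1000 nt, 4 by the highest peak and 17 of 519 under the stricter limits. Chosen after seeing the data, it was 21 by the weighted mean and 7 of 189 among runs of at least 10 peaks. The cause of these moves was not tested. The alternatives for motifs and for cullin-RING ligase genes were not run. The unknown depth limits every value, and a peak missing from the list cannot be told from 1 with few reads.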
